A study of Mus musculus with 14 samples.

Results

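The cytosolic ribosomal proteins were described across the livers of mice on 3 diets, measured on 14 two-colour expression arrays. The genes were chosen by name: every array gene called Rpl or Rps and a digit, with Rpsa, Rplp0, Rplp1 and Rplp2, and without the ribosomal S6 kinases and pseudogenes. That rule found 82 genes among the 36093 genes or gene names on the array, of which 81 were bright enough to test: 48 of the large subunit, 32 of the small subunit, and Rps19bp1, which is no ribosomal protein and matches by name. Rps15a was well above background on only 2 arrays and was not tested. The tested genes included 7 paralogs, which are second copies of a ribosomal protein gene: Rpl3l, Rpl7l1, Rpl22l1, Rpl36al, Rpl39l, Rps4l and Rps27l.

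All animals were male C57BL/6 mice, 1 year old and fed without restriction. Of these, 5 ate the AIN-93G standard diet, 5 ate a high-calorie version of AIN-93G with 60% of its calories from fat, and 4 ate that version with resveratrol at 0.04%. Resveratrol is a polyphenol found in grapes. No group received resveratrol on the standard diet, so resveratrol was measured only on the high-calorie background. On every array the Cy3 dye carried 1 animal's liver RNA and the Cy5 dye carried a pool of 5 standard-diet livers, with no dye swap. Each value is a log2 ratio of Cy3 over Cy5, so a value of 0 equals the pool.

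Ribosomal proteins assemble with ribosomal RNA into the small subunit, which reads the messenger RNA, and the large subunit, which joins amino acids. Their messenger RNAs are among the most abundant of any cell and are known as TOP messages, because they begin with a C followed by a run of pyrimidines (C or T). Through that start, the LARP1 protein and the nutrient-sensing mTOR kinase control their translation and stability together, and in liver ribosome content is known to follow food intake.

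RefSeq (GRCm38.p6) gave an annotated start for 62 of the 82 genes, at 73 starts. The windows shown here hold 30 bases, with 15 before the start and 15 from it, and the longest run of 5 or more pyrimidines is in capitals. They were chosen from the members whose values are described below, to show how the long run of TOP genes lies across the start of some and not of others. In Rpl13a the long run begins just after the annotated start. Rpl35 (chr2:39005117-39005146, minus strand), Rps27 (chr3:90213634-90213663, minus strand), Rps18 (chr17:33955651-33955680, minus strand), Rplp2 (chr7:141447636-141447665, plus strand), Rps6 (chr4:86857353-86857382, minus strand) and Rpl13a (chr7:45128731-45128760, minus strand) hold long runs.
Rpl35: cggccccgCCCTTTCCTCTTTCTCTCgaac
Rps27: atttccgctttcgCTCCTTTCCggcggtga
Rps18: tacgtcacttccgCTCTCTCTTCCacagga
Rplp2: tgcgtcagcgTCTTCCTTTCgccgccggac
Rps6: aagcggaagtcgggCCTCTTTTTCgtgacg
Rpl13a: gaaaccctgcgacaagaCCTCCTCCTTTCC
In Rps25 (chr9:44407699-44407728, plus strand), Rps16 (chr7:28350674-28350703, plus strand) and Rpl37a (chr1:72711245-72711274, plus strand) the runs were short or below 5 bases in these windows.
Rps25: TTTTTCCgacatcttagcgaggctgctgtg
Rps16: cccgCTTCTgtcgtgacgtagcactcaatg
Rpl37a: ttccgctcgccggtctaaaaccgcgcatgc

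A run of 8 or more pyrimidines on the sense strand lay in 34.2% of the 73 windows of the ribosomal protein genes, against 12% of all 32851 annotated starts. The letters CTTTCC or CTCTTT on the sense strand, which can lie inside such a run, were found in 19.2% against 2.42%. CGGAAG on either strand, a core that ETS family factors are known to bind, was in 60.3% of the 300-base promoter windows of these genes and in 16.9% of all. TATAAA on the sense strand was in 8.22% and 8.32%. These are matches of letters only.

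The ratios were computed with 2 scalings. Loess fits the ratio against brightness on each array and sets the trend to 0 at every brightness, whereas median scaling subtracts 1 number per array. The choice bears on these genes because 71 of the 81 lay in the brightest decile of the 32675 genes tested. Across arrays, 77.8% to 92.4% of probes were well above background in Cy3, and the median net Cy3 signal ran from 48.6 to 114. The lowest of both belonged to standard-diet array 2. That array also stood apart for the ribosomal proteins, so the counts over these genes are also given without it. The array was singled out in part by these genes' own values, so counts and p-values without it are description, not separate support.

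**Figure D1:**
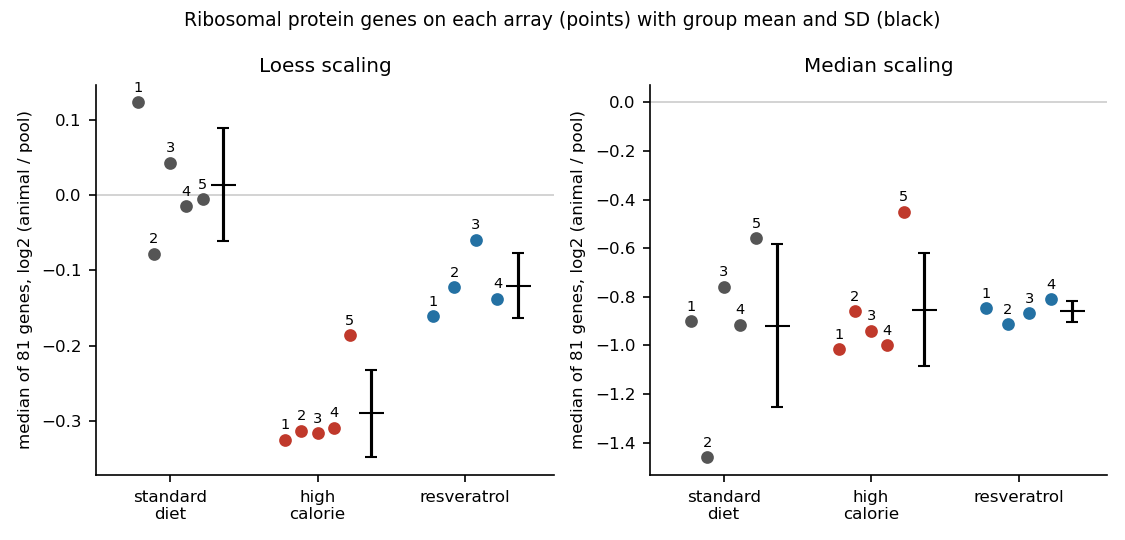
Median log2 ratio to the pool over the 81 tested ribosomal protein genes on each of the 14 arrays, by diet, with loess and with median scaling; each point is 1 animal and bars are the group mean and SD. With loess all 5 high-calorie arrays lie below all standard-diet and resveratrol arrays, the highest of them at -0.19 and the lowest resveratrol array at -0.16; with median scaling the groups overlap.

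With loess, the high-calorie livers held less ribosomal protein messenger RNA than the standard-diet livers, but with median scaling no gene was called. With loess, 49 of the 81 genes fell and 0 rose (limma, Benjamini-Hochberg adjusted p under 0.05 over all 32675 genes), while 4.07% of all genes were called lower and 9.44% in either direction. Of the 3268 genes of the brightest decile 340 were called lower with loess and 20.8% in either direction. The median difference of the 81 was -0.29, against -0.0021 over all genes and -0.0060 over the brightest decile. With median scaling 0 were called by limma in either direction, against 9.28% of all genes, and their median difference was 0.037. Without adjustment 3 passed p under 0.05 with median scaling, all higher, against 21.1% of all genes, and 58 with loess, all lower, against 13.3%. Without standard-diet array 2 the median turned to -0.083 with median scaling, and 2 genes, named here after their values were seen, were called lower, against 3.85% of all genes in either direction: Rpl28 (-0.45, adjusted p = 0.00594) and Rps15 (-0.34, adjusted p = 0.0335). Under median scaling 4 were called higher without standard-diet array 5, when 11067 of all 32675 genes were called, 62.6% of them higher. Under the same scaling the median of the 81 was -0.045 without high-calorie array 5.

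The median of the 81 genes on each standard-diet array was 0.12, -0.078, 0.043, -0.015 and -0.0060 with loess. On the high-calorie arrays it was -0.33, -0.31, -0.32, -0.31 and -0.19. The resveratrol arrays gave -0.16, -0.12, -0.059 and -0.14. In these loess values the high-calorie arrays were all lowest and the resveratrol arrays lay between the other groups, partly among the standard-diet arrays. With median scaling the same medians averaged -0.92 ± 0.335 (SD, n = 5), -0.85 ± 0.234 (SD, n = 5) and -0.86 ± 0.0426 (SD, n = 4) for the standard, high-calorie and resveratrol diets, and the groups overlapped. In whole liver, fewer cells of a type and less RNA per cell cannot be told apart.

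**Figure D2:**
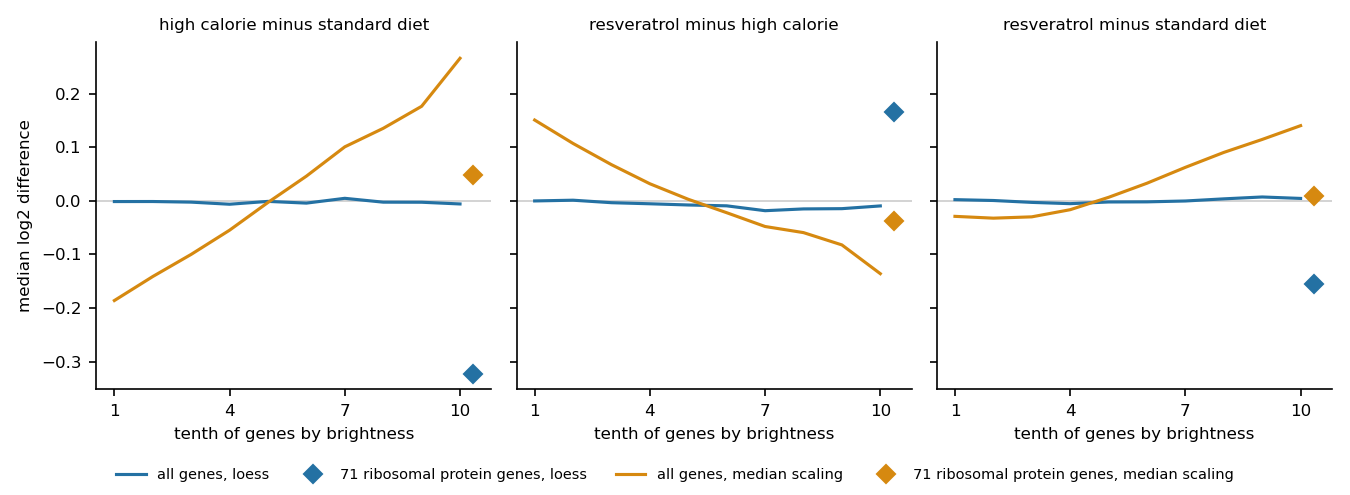
Median log2 difference between diets (vertical axis) in each decile of brightness for all genes (lines), and for the 71 ribosomal protein genes of the brightest decile (diamonds), with loess and with median scaling, 1 panel per comparison. With median scaling the all-gene median of high-calorie minus standard diet runs from -0.185 in the dimmest decile to 0.27 in the brightest; with loess it stays near 0.

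With median scaling the difference between diets changed with brightness for all genes. From the dimmest to the brightest decile, the all-gene median of high-calorie minus standard diet went from -0.185 to 0.27. The 2 scalings therefore split the calls over all genes differently, with 1754 higher and 1329 lower by loess and 2396 higher and 636 lower by median scaling. In the brightest decile median scaling called 742 genes higher and 18 lower. Against that decile, the ribosomal proteins lay low on the median-scaled arrays too: their median minus that of the decile was -0.14 ± 0.162 (SD, n = 5) on the standard diet, -0.34 ± 0.0877 (SD, n = 5) on the high-calorie diet and -0.23 ± 0.0424 (SD, n = 4) with resveratrol. Standard-diet array 2, at -0.42, lay below the mean of every diet here, and without it the standard-diet mean was -0.070 ± 0.0417 (SD, n = 4). Of the brightest hundredth, 327 genes, 35 were ribosomal proteins. In it their median difference was -0.38 with loess against -0.13 for the whole hundredth, and 0.045 against 0.30 with median scaling. The part of brightness in the difference was not tested.

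**Figure D3:**
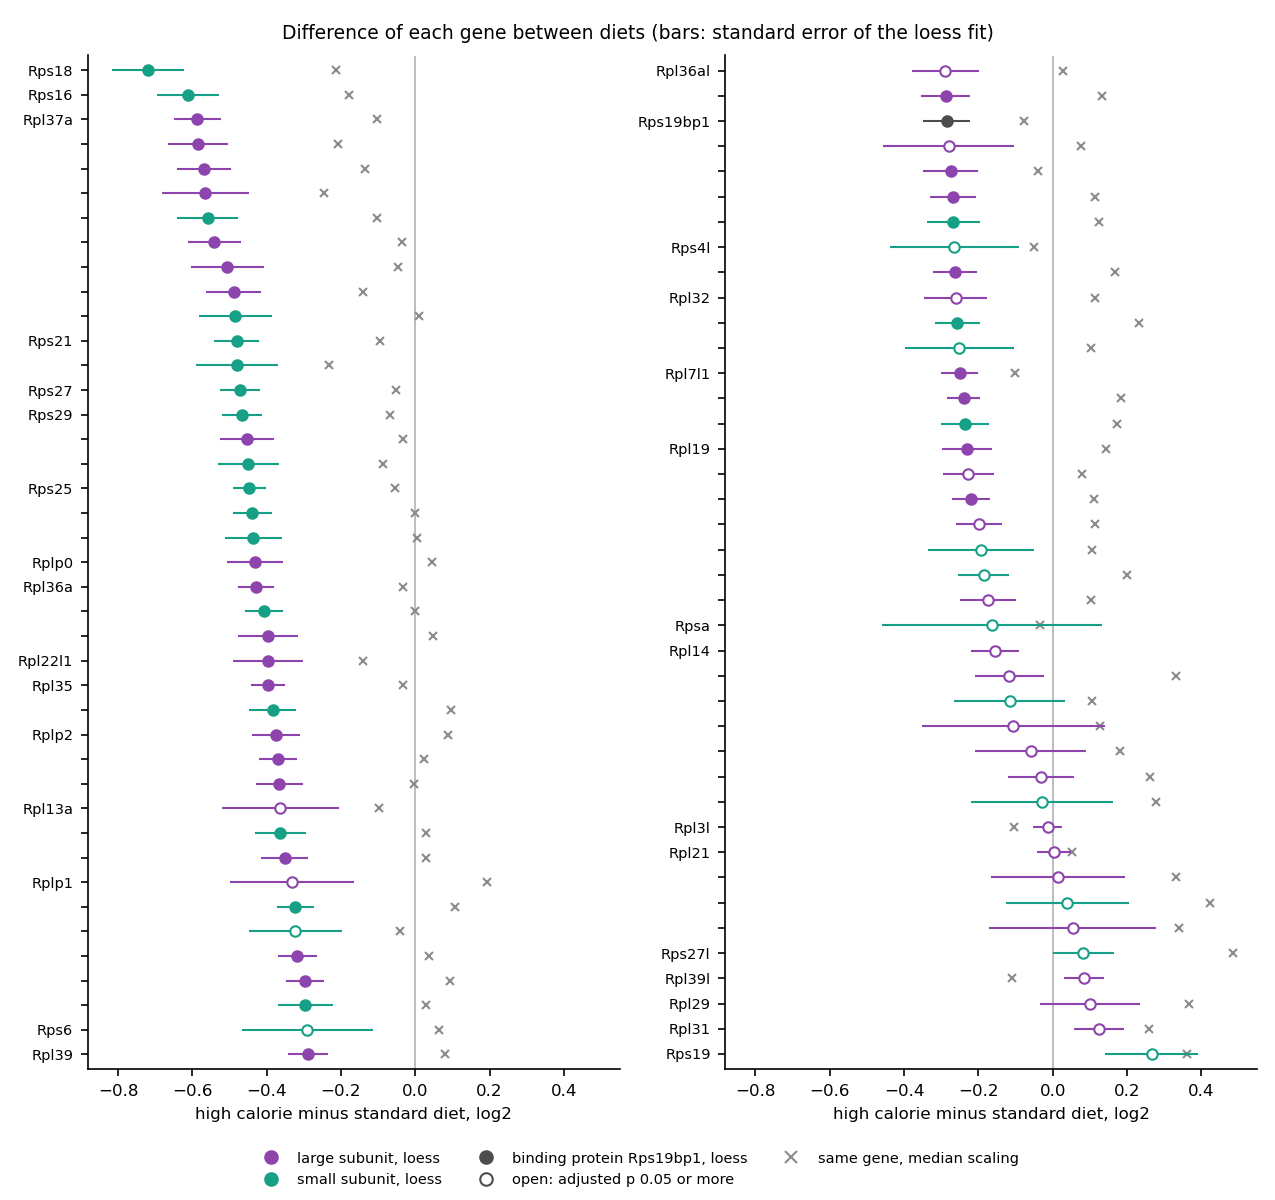
Log2 difference, high-calorie minus standard diet, of each of the 81 tested ribosomal protein genes, ordered by the loess value; circles are loess with the standard error of the fit as bars (filled where the adjusted p was under 0.05, open otherwise, coloured by subunit), and crosses are median scaling. Names are given for the genes named by rule and for Rps19bp1. With loess 72 of 81 lie below 0, from -0.72 for Rps18 to 0.27 for Rps19, whereas with median scaling 33 lie below 0 and 48 above.

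Large-subunit genes gave 28 of 48 lower with loess, with a median difference of -0.28. Rpl37a, a zinc-finger protein of the large subunit, measured 0.31, 0.30, 0.11, 0.17 and -0.019 on the standard diet and -0.35, -0.46, -0.39, -0.45 and -0.41 on the high-calorie diet. These groups did not overlap, and Rpl37a was lower with loess (log2 difference -0.59, SE 0.0624, adjusted p = 0.000124), against -0.10 (adjusted p = 0.58) with median scaling. Rpl36a, which lines the site where spent transfer RNA leaves, measured 0.38, 0.25, 0.32, 0.27 and 0.24 on the standard diet and -0.14, -0.15, -0.12, -0.16 and -0.12 on the high-calorie diet. The groups stood far apart in Rpl36a, which was 1.35-fold lower with loess (log2 difference -0.43, SE 0.0478, adjusted p = 0.000181) and -0.032 (adjusted p = 0.869) with median scaling. Rpl35, which lies beside the exit of the tunnel for the new protein chain, was 1.31-fold lower with loess (adjusted p = 0.000242) and -0.034 with median scaling. Rpl39, a very small protein in the wall of that tunnel, was 1.22-fold lower with loess (adjusted p = 0.00562) and 0.081 on the log2 scale above the standard diet with median scaling.

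Small-subunit genes gave 20 of 32 lower with loess, with a median of -0.32. Rps25, which sits in the head of the subunit and is known for its part in initiation at internal ribosome entry sites, had the smallest adjusted p of all these genes. It measured 0.24, 0.11, 0.060, 0.026 and -0.0063 on the standard diet, -0.34, -0.36, -0.36, -0.34 and -0.39 on the high-calorie diet, and -0.22, -0.13, -0.16 and -0.24 with resveratrol. The 3 groups did not overlap in Rps25 with loess: the high-calorie livers were 1.36-fold below the standard diet (log2 difference -0.45, SE 0.0446, adjusted p = 9.78e-05), but only -0.054 (adjusted p = 0.742) with median scaling.

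Rps27, a zinc-finger protein of the small subunit, was 0.072, -0.19, -0.14, -0.094 and -0.13 on the standard diet, -0.58, -0.54, -0.65, -0.64 and -0.43 on the high-calorie diet, and -0.26, -0.20, -0.20 and -0.28 with resveratrol. With loess it was 1.39-fold lower in the high-calorie than in the standard-diet livers (adjusted p = 0.000198), with no overlap, against -0.053 with median scaling (adjusted p = 0.815). Rps29, another small zinc-binding protein, was 1.38-fold lower with loess (adjusted p = 0.000209) and -0.068 with median scaling. Rps18, which lies in the head of the small subunit and is widely used as a reference gene, measured 0.32, 0.60, 0.038, 0.076 and -0.046 on the standard diet and -0.45, -0.59, -0.46, -0.58 and -0.53 on the high-calorie diet. Its fall with loess was the largest of the 81, 1.65-fold (log2 difference -0.72, SE 0.0965, adjusted p = 0.000621), and -0.21 (adjusted p = 0.171) with median scaling. Rps16, whose tail reaches towards the transfer RNA site, was 1.53-fold lower with loess (adjusted p = 0.000682), against -0.18 (adjusted p = 0.341) with median scaling.

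**Figure D4:**
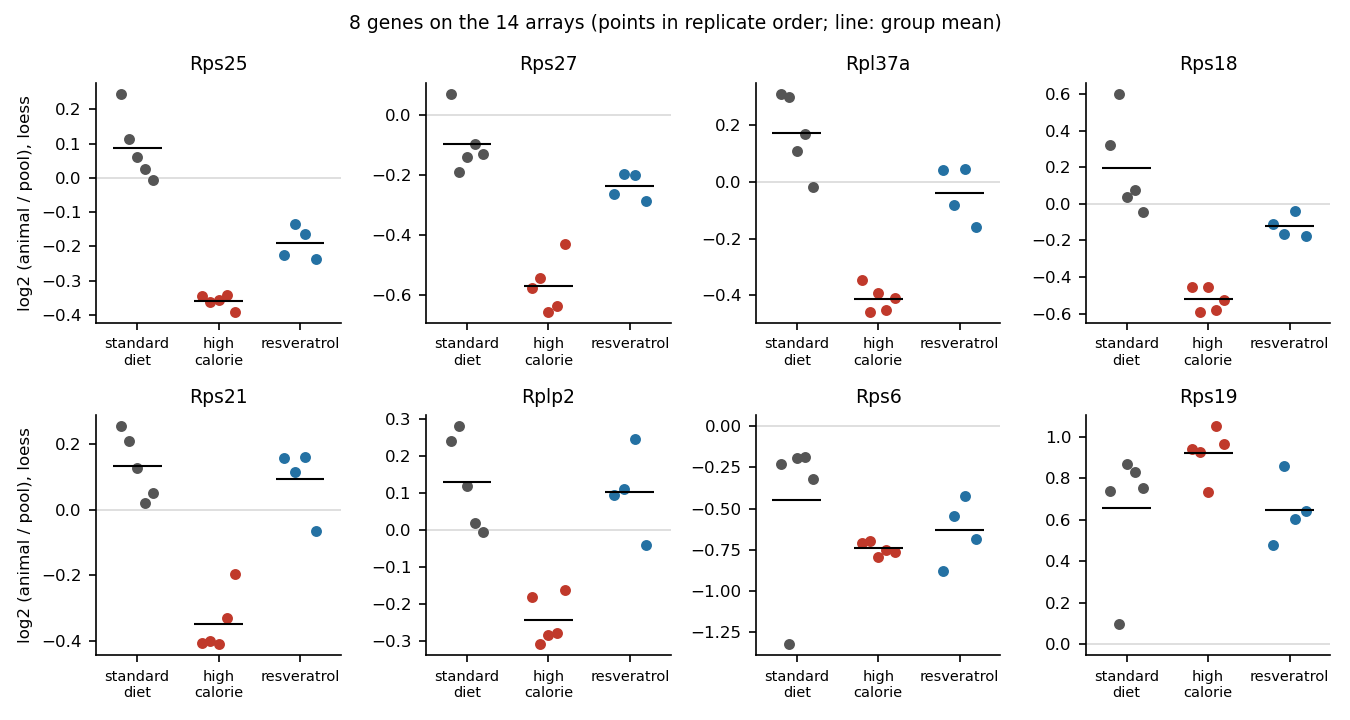
Loess log2 ratio to the pool on each of the 14 arrays for Rps25, Rps27, Rpl37a, Rps18, Rps21, Rplp2, Rps6 and Rps19, by diet; each point is 1 animal and each line a group mean. The high-calorie points of Rps25, Rps27, Rpl37a, Rps18, Rps21 and Rplp2 lie below every standard-diet point; Rps6 and Rps19 each have 1 low standard-diet array, array 2. With median scaling the log2 difference between these diets was above 0 for Rplp2 (0.087) and between -0.21 and -0.053 for Rps25, Rps27, Rpl37a, Rps18 and Rps21.

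The stalk of the large subunit is a flexible arm that recruits the translation factors, built from Rplp0 at its base and pairs of Rplp1 and Rplp2. Rplp0 measured -0.12, 0.041, -0.22, -0.16 and -0.27 on the standard diet and -0.49, -0.63, -0.63, -0.61 and -0.53 on the high-calorie diet, with no overlap. It was 1.35-fold lower on the high-calorie diet with loess (log2 difference -0.43, SE 0.0748, adjusted p = 0.00358) and 0.045 with median scaling. Rplp2 measured 0.24, 0.28, 0.12, 0.021 and -0.0060 on the standard diet and -0.18, -0.31, -0.28, -0.28 and -0.16 on the high-calorie diet, with no overlap. It was 1.30-fold lower with loess (adjusted p = 0.00351) and 0.087 with median scaling, and its other probe had a difference of 0.11 with loess. Rplp1 was not called with loess (-0.33, SE 0.168, adjusted p = 0.214). Its values overlapped, at 0.56, 1.13, 0.25, -0.015 and 0.38 on the standard diet and 0.35, 0.15, 0.18, -0.26 and 0.22 on the high-calorie diet. Its Cy5 spot was saturated on 13 of 14 arrays, so its ratio to the pool has no exact level.

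Several members with a second role or a use as reference genes are described next. Rps6, the substrate of the S6 kinases downstream of mTOR, measured -0.23, -1.32, -0.20, -0.19 and -0.32 on the standard diet and -0.71, -0.70, -0.79, -0.75 and -0.76 on the high-calorie diet. Array 2 alone lay below the high-calorie values, and the difference was -0.29 (SE 0.176, adjusted p = 0.301) with it and -0.51 (SE 0.0721, adjusted p = 0.00118) without it. Rpl13a, which also takes part in translational silencing after interferon, showed the same split, with -0.36 (adjusted p = 0.15) with array 2 and -0.54 (adjusted p = 0.0028) without. Array 2 was singled out by values such as these, so the p-values without it are no separate support. The reference gene Rpl19 was 1.17-fold lower with loess (adjusted p = 0.045) and 0.14 on the log2 scale with median scaling, and its loess call was lost when any of 8 single arrays was left out; it reached 0.111 without high-calorie array 5. Rpl32 was not called (-0.26, adjusted p = 0.0649), nor was Rpsa, also known as the laminin receptor (-0.16, SE 0.296, adjusted p = 0.759).

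Of the 7 paralogs 2 were called lower with loess, with a median of -0.25, and 3 without standard-diet array 2. Rpl22l1, the paralog of Rpl22, was 1.32-fold lower on the high-calorie diet with loess (adjusted p = 0.0205) and Rpl7l1 was 1.19-fold lower (adjusted p = 0.0084), and median scaling called neither. The call of Rpl22l1 was lost without standard-diet array 3 (adjusted p = 0.0578) or high-calorie array 1 (adjusted p = 0.0533). The other 5 were not called with loess. Rpl36al, at -0.29 (adjusted p = 0.0577), was called without standard-diet array 2 at -0.39 (adjusted p = 0.00204). Rpl39l had a difference of 0.084 (adjusted p = 0.332) and Rps27l 0.082 (adjusted p = 0.547); with median scaling Rps27l had 0.48 (adjusted p = 0.0744), the smallest adjusted p of the 81 there. Rps19bp1, which encodes a protein known as an activator of the deacetylase SIRT1, was 1.22-fold lower with loess (adjusted p = 0.0148).

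Groups that did not overlap were counted without a model. With loess, 43 of the 81 genes had every high-calorie array below every standard-diet array, against 5.18% of all genes, and with median scaling 0 did, against 1.77%. In the brightest decile 377 of 3268 genes did so with loess and 14 with median scaling. Without standard-diet array 2 the counts of the 81 were 62, against 6.68% of all genes, and 1, against 2.1%. Called lower with loess without that array were 36 of the 48 large-subunit and 25 of the 32 small-subunit genes. Of the 31 genes with several probes above background, 22 had all of their probes below 0 in this loess comparison. In 6 genes the probes disagreed in sign: Rpl29, Rpl7, Rpl22, Rps2, Rplp2 and Rpl23. Ribosomal protein genes have many processed pseudogenes and near-identical copies, and a probe may read several of them, so single values are uncertain in that respect.

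Within the arrays whose images were extracted on the earlier of 2 days, 30 genes were called lower with loess, against 2.51% of all genes in either direction, and the median difference was -0.35. That day held 2 high-calorie and 3 standard-diet arrays, and the later day 3 and 2. On the later day 0 were called by limma, against 0.168%, and the median was -0.22. The slide barcodes in the file headers were split into 2 runs of numbers at their largest gap. Whether these slide runs mark a batch is not stated. All standard-diet arrays and 3 of the high-calorie arrays lay in 1 run. Within it 25 genes were called, against 2.56%, with a median of -0.29. Those 3 high-calorie arrays were all extracted on the later day, while most of the standard-diet arrays were extracted on the earlier day. Both high-calorie arrays of the earlier day lay in the other run, so on that day diet and slide run cannot be told apart. Only the later-day comparison had both diets on the same day and in the same run.

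Markers of the liver's cell types were read beside these genes, where 9.44% of all genes were called with loess and 9.28% with median scaling. The hepatocyte list had 4 of 14 tested genes lower and 0 higher with loess, and 1 lower and 2 higher with median scaling. Its median per array ran from 0.52 to 0.64 on the standard diet, 0.12 to 0.38 on the high-calorie diet and 0.40 to 0.74 with resveratrol with loess, whereas with median scaling the ranges overlapped. The stellate cell list had 6 of 10 higher and 1 lower with loess, with medians from -0.13 to 0.040, 0.21 to 0.26 and -0.11 to 0.16, and 5 higher and 0 lower with median scaling. The Kupffer cell list had 1 of 13 higher with loess, with medians from -0.99 to -0.72, from -0.58 to -0.27 and from -0.96 to 0.23, and 4 higher with median scaling. With loess the endothelial list had 2 of 10 higher, the bile duct list 1 of 6 higher, the lymphocyte list 1 of 11 lower, the red cell list 0 of 3 called and the fat cell list 1 of 5 higher and 1 lower. Under median scaling the endothelial, bile duct, lymphocyte and fat cell lists each had 1 higher and 0 lower. Their part in the ribosomal protein difference was not tested.

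Resveratrol on the high-calorie diet was compared with the high-calorie diet alone, which uses the same high-calorie arrays as the comparison above. With loess, 19 of the 81 genes rose and 0 fell, while 3.16% of all genes were called higher and 5.39% in either direction. Of the 3268 genes of the brightest decile 193 were called higher with loess and 9.15% in either direction. The median difference of the 81 was 0.13, against -0.0068 for all genes. With median scaling 0 genes were called by limma, against 0.367% of all genes; 2 passed an unadjusted p under 0.05, both lower, against 7.64%, and the median was -0.029. The groups did not overlap for 34 genes with loess, all higher with resveratrol, against 6.82% of all genes. In the brightest decile 444 of 3268 genes did so.

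Of the large-subunit genes 9 of 48 rose with loess, and of the small-subunit genes 10 of 32. Rps21, a protein of the small subunit, measured -0.41, -0.40, -0.41, -0.33 and -0.20 on the high-calorie diet and 0.16, 0.12, 0.16 and -0.063 with resveratrol. It was 1.36-fold higher with loess (log2 difference 0.44, SE 0.0642, adjusted p = 0.00432), the largest rise of the 81, and 0.23 (adjusted p = 0.364) with median scaling. The resveratrol values reached those of the standard diet, at 0.25, 0.21, 0.13, 0.020 and 0.051. Rps27 was 1.26-fold higher with loess (adjusted p = 0.00833) and 0.097 (adjusted p = 0.759) with median scaling, and Rps29 was 1.26-fold higher with loess (adjusted p = 0.00833).

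Rpl37a measured 0.043, -0.081, 0.046 and -0.16 with resveratrol, all above its high-calorie values, and was 1.30-fold higher with loess (log2 difference 0.37, adjusted p = 0.00937). Rplp0 was 1.29-fold higher (adjusted p = 0.020), Rplp2 1.27-fold (adjusted p = 0.0146), Rpl39 1.22-fold (adjusted p = 0.0157) and Rps18 1.32-fold (adjusted p = 0.0385), all with loess. With median scaling none of these was called. The loess calls of Rps21, Rps27, Rps29 and Rpl37a held when any single array was left out. Rps18 lost its call without any of 8 of the arrays. The call of the paralog Rpl22l1 (1.29-fold, adjusted p = 0.0498) was lost without any of 10, that of Rplp0 without any of 2, and those of Rplp2 and Rpl39 without resveratrol array 1.

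The count of 19 moved by more than 1.5 times when certain arrays were left out. It was 4 without resveratrol array 1, 10 without resveratrol array 2 and 9 without resveratrol array 3. Over all genes 352, 1432 and 959 were then called, against 1760 with all arrays. The count was 8, 10, 11 and 9 without high-calorie arrays 2, 3, 4 and 5. Calls over all genes were then 752, 1120, 1397 and 658. Without standard-diet array 2, which enters through the shared estimate of the spread, 31 genes were called, against 7.87% of all genes. Of the 31, 30 were higher and 1 lower. All resveratrol arrays lay in the earlier day of image extraction, with 2 of the high-calorie arrays. Within that day 0 of the 81 genes were called by limma, against 0.159% of all genes, and the median difference was 0.14. With the day as a block 6 were called, against 1.36%. Of the cell type lists, the stellate list had 4 of 10 lower with resveratrol with loess and 2 with median scaling. The hepatocyte, Kupffer and fat cell lists each had 1 higher with loess and 0 called with median scaling, and the loess array medians of the hepatocyte list did not overlap between these diets. Their part was not tested.

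Resveratrol on the high-calorie diet was also compared with the standard diet, sharing arrays with both earlier comparisons. With loess 2 genes fell and 0 rose, while 0.0888% of all genes were called lower and 0.214% in either direction. Of the 3268 genes of the brightest decile 14 were called lower with loess and 1.07% in either direction. The median of the 81 was -0.15, and 73 lay below 0. With median scaling limma called 0 genes, against 0.052% of all genes, 0 passed an unadjusted p under 0.05, against 7.24%, and the median was 0.0088. The groups did not overlap for 14 genes with loess, all lower, against 1.85% of all genes. In the brightest decile 87 of 3268 genes did so.

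The 2 genes were Rps25, 1.21-fold lower with loess (log2 difference -0.28, SE 0.0473, adjusted p = 0.0331), and Rpl35, 1.21-fold lower (log2 difference -0.28, SE 0.0491, adjusted p = 0.0368). Rpl35 measured 0.12, -0.13, -0.090, -0.068 and -0.064 on the standard diet and -0.39, -0.29, -0.30 and -0.33 with resveratrol, close to its high-calorie values of -0.43, -0.43, -0.41, -0.52 and -0.42. Its rise from the high-calorie diet was not called (0.12, adjusted p = 0.18). Each of these calls was lost when any of 9 single arrays was left out. Without standard-diet array 2, 10 genes were called lower, against 0.655% of all genes then, and the groups did not overlap for 28, against 3.6%. The count was 0 without any of standard-diet arrays 3 and 4, high-calorie arrays 1, 2 and 3 and resveratrol arrays 1 and 2. It was 5 without standard-diet array 5 or resveratrol array 3, and 1 without high-calorie arrays 4 and 5 or resveratrol array 4. Over all genes 70 were called with all arrays, and from 23 to 55 where the count was 0 or 1. There were 159 without standard-diet array 5 and 210 without resveratrol array 3.

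With loess, the differences of the ribosomal proteins were not all of 1 size. When each array was centred on the median of the 81 genes, 11 were called higher and 17 lower than that median in the high-calorie against the standard-diet livers. This centring moves every other gene too, so that 89.5% of all genes were called (91.2% without standard-diet array 2, where 10 of the 81 were higher and 18 lower), and only differences among the ribosomal proteins are read from it. The smallest adjusted p among the lower genes belonged to Rps16 (-0.31, adjusted p = 0.00101), Rpl37a, Rps18 and Rps27. Among the higher genes it belonged to Rpl39l (0.39, adjusted p = 5.58e-05), Rpl31 (0.43, adjusted p = 6.67e-05), Rps19 (0.57, adjusted p = 0.000295) and Rpl21 (0.31, adjusted p = 0.00030). These higher genes all lay among the 10 below the brightest decile, of which 6 were called higher and 0 lower after centring. Without centring their loess differences were 0.084, 0.12, 0.27 and 0.0040, and none was called. Centring raised the all-gene median to 0.30, so a gene that stays near 0 can be called higher by it. Net Cy3 signals ran from 23.3 to 55.1 for Rpl39l and from 32 to 119 for Rpl21. The offset of 50 in the background correction draws such dim ratios towards 0. The part of dimness in these calls was not tested.

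Rps19, mutated in Diamond-Blackfan anaemia, measured 0.74, 0.095, 0.87, 0.83 and 0.76 on the standard diet, 0.94, 0.93, 0.73, 1.05 and 0.96 on the high-calorie diet and 0.48, 0.86, 0.61 and 0.64 with resveratrol. Apart from standard-diet array 2 these values overlapped, and its loess difference of 0.27 was not called (adjusted p = 0.185). Centred in the same way, 4 genes were higher and 8 lower with resveratrol than without it on the high-calorie diet, against 45.9% of all genes called; without standard-diet array 2 they were 9 and 10, against 51.7%. Of the 8 lower, 5 were among the 10 genes below the brightest decile. Rps21 was highest by p (0.27, adjusted p = 0.00606) and Rpl29 among the lowest (-0.62, adjusted p = 0.00323). Without centring, the probe used for Rpl29 had a loess difference of -0.45 and its other probes had -0.087, -0.068 and -0.066. Against the standard diet 0 of the 81 were called with resveratrol, by limma on the centred values, where 6.63% of all genes were; without standard-diet array 2 there were 5 higher and 6 lower, against 30.2%.

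Brightness was also set against the differences among the ribosomal proteins. Across the 81 genes, which share the same arrays, Spearman's rho between brightness and the high-calorie minus standard-diet difference was -0.533 with loess and 0.0956 with median scaling. Of the 71 genes in the brightest decile 47 fell with loess, with a median of -0.32. Of the 10 dimmer genes 2 fell, with a median of -0.085.

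**Figure D5:**
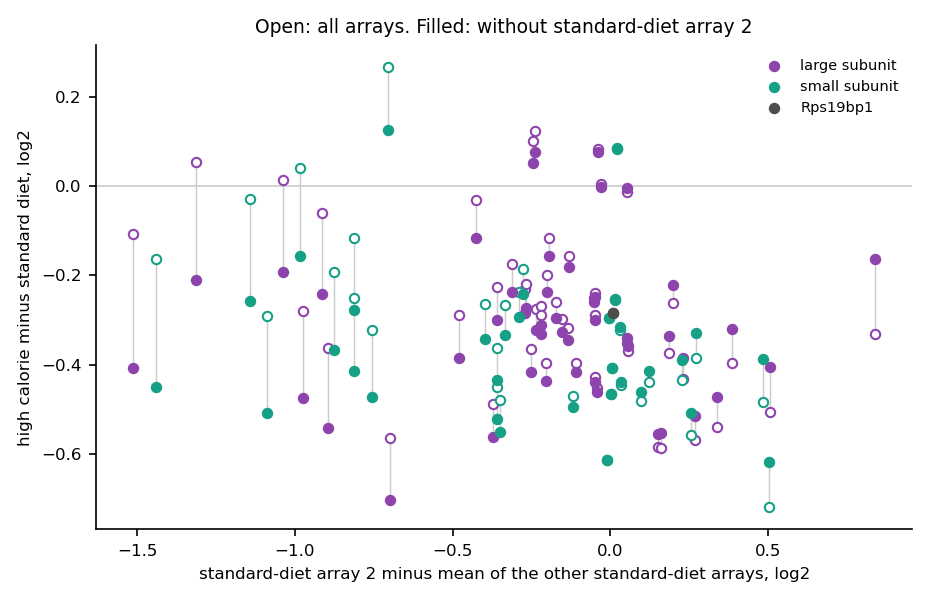
For each of the 81 ribosomal protein genes, the gap between standard-diet array 2 and the mean of the other standard-diet arrays (horizontal axis, log2) and the high-calorie minus standard-diet difference (vertical axis, log2), both with loess; open circles use all arrays, filled circles leave array 2 out, and a line joins the 2 values of a gene. The gap runs from -1.51 for Rpl3 to 0.51 for Rpl38, leaving aside the point furthest right, Rplp1, whose Cy5 spot was saturated, and leaving the array out lowers the difference of genes on the left, such as Rps6 from -0.29 to -0.51.

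The standard-diet array 2 differed from the other standard-diet arrays gene by gene. With loess, 16 of the 81 genes (19.8%) were more than 0.5 on the log2 scale below the mean of the other standard-diet arrays and 3 (3.7%) were more than 0.5 above. In the brightest decile of all genes 16% were that far below and 4.1% that far above. With loess, no other of the 14 arrays had more than 2 of the 81 that far below, or more than 2 that far above, the mean of its group's other arrays. With median scaling array 2 had 59 of the 81 that far below (72.8%, against 39.7% of the brightest decile), standard-diet array 5 had 28 that far above and high-calorie array 5 had 20. The low genes, singled out after their values were seen, included Rpl3, Rpsa, Rpl5, Rps3a1, Rps6, Rpl9, Rps14, Rpl8, Rpl10a, Rpl13a, Rps10, Rps9, Rps26, Rps19 and Rpl28, and the high ones were Rpl38, Rps18 and Rplp1, the last with a saturated Cy5 spot.

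Without that array, 62 of the 81 genes were called lower on the high-calorie than on the standard diet with loess, against 7.12% of all genes called in either direction, with a median of -0.34. All 49 earlier calls were among them. The 62 was the highest count when any single array was left out (42 to 62 with loess). Array 2 was chosen by these genes' own values, so the added calls are no separate support. The 13 added genes included Rpl3, at the peptidyl transferase centre (-0.41, adjusted p = 0.0328), Rpl8 (-0.47, adjusted p = 0.0191), Rps10 (-0.37, adjusted p = 0.00341) and Rps26 (-0.47, adjusted p = 0.000625). The median SD of the 81 genes between arrays was 0.158, 0.0744 and 0.102 for the standard, high-calorie and resveratrol diets with loess, close to the 0.151, 0.0764 and 0.121 of all genes in the brightest decile. For the standard diet it was 0.104 without array 2, as in that decile. With median scaling it was 0.326, 0.218 and 0.103, and 0.173 for the standard diet without array 2.

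The genes also moved together with median scaling from array to array within a diet. The median correlation between pairs of these genes of their deviations from the diet means, over 14 arrays, was 0.862 with median scaling and 0.245 with loess. For the 75 mitochondrial ribosomal proteins it was 0.733 with median scaling and 0.381 with loess, so moving together was not particular to the cytosolic ones. The points share arrays and, with median scaling, each array's trend with brightness.

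Ribosomal proteins named under other symbols, and so outside the rule, were read from a separate list. Rack1, a signalling scaffold on the head of the small subunit, and Fau, a fusion that yields Rps30, were lower on the high-calorie diet with loess. Rack1 had a difference of -0.55 (SE 0.0570, adjusted p = 0.000101), and Fau of -0.33 (adjusted p = 0.0225) with loess and 0.088 (adjusted p = 0.674) with median scaling. With resveratrol, Rack1 was 0.41 above the high-calorie diet with loess (adjusted p = 0.00439). With median scaling the differences of Rack1 were -0.097 (adjusted p = 0.572) and 0.16 (adjusted p = 0.523).

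Other lists of the translation machinery were read for the high-calorie diet, where 9.44% of all genes were called with loess and 9.28% with median scaling. Of 19 translation factors that share the TOP start, or work beside those that do, 1 rose and 3 fell with loess (median -0.051), and 1 rose and 0 fell with median scaling (median 0.19). They included Eef1d, a subunit of the exchange factor for elongation factor 1, at -0.46 (adjusted p = 0.00127) with loess and -0.12 (adjusted p = 0.349) with median scaling. The poly(A)-binding protein Pabpc1 was at -0.22 (adjusted p = 0.0146) with loess and 0.15 (adjusted p = 0.460) with median scaling. Of 29 other initiation, elongation and release factors 2 rose and 2 fell with loess (median 0.041), and 2 rose and 0 fell with median scaling (median 0.19). Of 49 genes of ribosome biogenesis and the nucleolus 3 rose and 4 fell with loess (median -0.0019), and 4 rose and 1 fell with median scaling (median 0.062). The 4 that fell with loess included Rps19bp1, which is also counted among the 81 genes. Of 13 genes of RNA polymerase I, which makes ribosomal RNA, 0 were called by limma with either scaling, with medians of 0.0062 and -0.0047.

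Of 22 regulators of TOR signalling and TOP messages 2 rose and 2 fell with loess, and 1 rose and 0 fell with median scaling. Rictor, a subunit of mTOR complex 2, was lower on the high-calorie diet (-0.22, adjusted p = 0.00554) and higher with resveratrol than without it (0.20, adjusted p = 0.021) with loess, against -0.066 and 0.12, not called, with median scaling. Mlst8, a subunit of both mTOR complexes, was higher on the high-calorie diet with loess (0.23, adjusted p = 0.0201) and 0.24 (adjusted p = 0.0526) with median scaling. The 75 mitochondrial ribosomal proteins, which translate the messages of mitochondrial DNA, gave 4 higher and 1 lower with loess, with a median of 0.10, and 16 higher and 0 lower with median scaling, with a median of 0.28. Among them Mrpl16 was higher with both, at 0.31 (adjusted p = 0.00683) with loess and 0.47 (adjusted p = 0.0103) with median scaling.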

How the data were processed

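Spots were read from the scanner files, in which the deposited foreground and background intensities of both dyes are as the scanner software (Agilent Feature Extraction 7.5.1, per the file headers) wrote them. The deposited table of the authors' own values holds a score per probe whose log base is not stated: each column has mean 0 and SD 1 and follows log processed Cy3 (r from 0.983 to 0.985), and it served as an alternative. RNA was purified on columns and amplified linearly, per the labels' protocols.

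Here, with limma 3.58.1 in R 4.3.3 (with the package data.table, version 1.17.8), the deposited intensities were background-corrected (normexp, offset 50), turned into log2 Cy3 over Cy5 and normalised by loess (span 0.3, control spots at weight 0) or by the array's median. The 576 spots flagged as outliers were left out, spots of a probe were averaged, and the brightest probe stood for each gene. Of 41174 probes 20859 matched 1 gene. A gene was tested if its Cy3 spot passed the software's background flag on 4 or more arrays. A single fit of all 14 arrays gave the 3 comparisons, Benjamini-Hochberg adjusted over 32675 genes; a call is an adjusted p under 0.05. The fit was tested on simulated data. The number of arrays limits the precision. Replicates are separate animals, per the labels.

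Named ribosomal proteins were, per comparison, up to 3 of each subunit and direction with the smallest adjusted p, those called by both scalings (0 were), up to 4 per direction and comparison called after centring on the 81, a fixed list (stalk proteins, Rpsa, Rps6, reference genes, paralogs), and those saturated on every array of a group. Per other list, up to 2 called genes were named. The ribosomal proteins and all lists were chosen with earlier results of these data known. Alternatives covered background correction, loess span, scaling, dye channel, probe choice, filters, days of image extraction, slide runs, blocks and each array left out. Results for some genes are not reported here.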

Additional observations from a re-analysis of the deposited data

Results flagged for a closer look

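Within the groups of 4 or 5 arrays, 96 sets of values were examined for an array far from the rest, measured by its gap to the nearest array over the range of the group, and 8 stood out. Chance gives about 1 in 20 such groups. Standard-diet array 2 was far below the other standard-diet arrays in Rps6 at -1.32, in Rpl13a at -0.36, in Rpl36al at -0.42 and in Rps19 at 0.095, all loess log2 ratios to the pool. Standard-diet array 1 was above the others in Rpl35 at 0.12. High-calorie array 4 was below the others in Rpl35 at -0.52. High-calorie array 5 was above the other high-calorie arrays in the median of the 81 ribosomal proteins, at -0.19 with loess and -0.45 with median scaling. No explanation of these values was tested.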

How the results depend on the processing

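For high-calorie minus standard diet, 49 ribosomal proteins were called with a median of -0.29 with loess. The count was 0 (median 0.037) with median scaling, 22 from Cy3 alone and 1 in the deposited value table (median -0.16 in scores, not log2 ratios). Over all genes 3083 were called with loess, and 3032, 952 and 416 in these settings. Within the earlier day of image extraction, where the diets also differed in slide run, the count was 30. Within the later day it was 0 (median -0.22, 3 against 2 arrays). Within the slide run that held both groups it was 25. Over all genes 819, 55 and 837 were called there. After centring on the ribosomal proteins the count was 28, against 29250 of all genes. With median scaling and the replicate number as a block it was 2 (median 0.037), against 7750 of all genes. With median scaling, with or without that block, Rpl19 turned to 0.14, Rpl39 to 0.081, Rplp0 to 0.045 and Rplp2 to 0.087. After centring, Rpl14 turned to 0.15, Rpl19 to 0.073, Rpl39 to 0.014, Rpl3l to 0.29 and Rpl7l1 to 0.054. Leaving out 1 array gave 42 to 62 calls and medians from -0.34 to -0.26 with loess, and 0 to 4 calls and -0.083 to 0.13 with median scaling. Over all genes it gave 1379 to 5993 calls with loess and 743 to 11067 with median scaling. Over both scalings, it gave differences from -0.28 to 0.24 for Rpl19, -0.42 to 0.053 for Rpl35, -0.44 to 0.055 for Rpl36a, -0.31 to 0.19 for Rpl39, -0.46 to 0.14 for Rplp0, -0.41 to 0.17 for Rplp2, -0.47 to 0.021 for Rps25, -0.51 to 0.042 for Rps27 and -0.49 to 0.012 for Rps29.

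For resveratrol minus high-calorie diet, 19 were called with a median of 0.13 with loess. The count was 0 (median -0.029) with median scaling, 11 with a loess span of 0.7 and 8 with the scanner software's processed signals. It was 0 from Cy3 alone (median 0.066) and in the value table (median 0.041 in scores, not log2 ratios). The count was 6 with the day and 8 with the slide run as a block, and 12 after centring. Within the earlier day (4 against 2 arrays) and the first slide run (3 against 2 arrays) it was 0. In the second run 1 resveratrol array against 3 high-calorie arrays gave a median of 0.19. The replicate number as a block gave 7, and 0 (median 0.047) with median scaling. Over all genes 1760 were called with loess, 120 with median scaling, 1695 with the wider span and 698 with processed signals. There were 83 from Cy3 alone, 48 in the value table, 445 and 672 with the blocks of day and slide run, and 15005 after centring. Within the earlier day there were 52, within the first slide run 0, and with the replicate block 409, or 95 with median scaling. Leaving out 1 array gave 4 to 31 calls and 0.11 to 0.17 with loess, and 0 calls and -0.076 to 0.046 with median scaling. Over all genes it gave 352 to 2571 calls with loess and 24 to 360 with median scaling.

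For resveratrol minus standard diet, 2 were called with a median of -0.15 with loess. The count was 0 with median scaling (median 0.0088), processed signals, Cy3 alone and the value table. Over all genes 17, 32, 21 and 4 were called there. It was 0 with the slide run as a block, with the array's median Cy3 signal as a covariate and after centring. Over all genes 10, 29 and 2166 were called there. With the replicate number as a block it was 0, also with median scaling (median 0.099), against 48 and 213 of all genes. The count was 1 with the day as a block, against 63 of all genes, and the median was -0.21 within the earlier day. Leaving out 1 array gave 0 to 10 calls and -0.21 to -0.12 with loess, and 0 calls and -0.14 to 0.10 with median scaling. Over all genes it gave 23 to 214 calls with loess and 3 to 135 with median scaling. Deviations of arrays with the same replicate number had correlations from -0.185 to 0.30, which cannot show whether the numbers pair the animals. With median scaling the block raised the calls over all genes of high-calorie minus standard diet from 3032 to 7750. A call lost under the block is not read as a weaker effect. The causes of these changes were not tested.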
